A study of Mus musculus with 17 samples.

Results

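The miRNAs described here are those of the imprinted Dlk1-Dio3 region of mouse chromosome 12 that lie outside the anti-Rtl1 transcript. They were chosen by miRNA number, whatever the letter, copy or arm, and gave 88 mature entries of the 1033 in the deposited table, from 47 precursor hairpins. They were measured in B8 and D3, a pair of mouse embryonic stem cell (ESC) lines, which are pluripotent and stay undifferentiated in culture when given the cytokine LIF. The libraries analysed fall into 5 groups: B8 at day 0 and at day 7 (3 libraries each), and D3 at day 0 (3), day 7 (2, replicates 2 and 3) and day 21 (3). Day 0 cells were undifferentiated and grew with LIF and serum but no feeder cells. Embryoid bodies, the aggregates that form in hanging drops, were taken at day 7 and their outgrowths at day 21, both from medium that lacked LIF and held the supplements RA, ITS and N2. The labels name no genotype, sex or passage of either line, and the 3 labelled B8 samples of day 21 are not analysed here. No label says that replicates came from separate cultures, and the p-values below then cover only the spread between libraries, which may be technical.

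The Dlk1-Dio3 region is imprinted: the protein-coding genes Dlk1, Rtl1 and Dio3 are transcribed from the paternal chromosome, and the noncoding RNAs Meg3, Rian and Mirg from the maternal one. The miRNAs are cut from these maternal transcripts. Those of anti-Rtl1, such as miR-127, lie opposite the Rtl1 coding sequence and can cleave its mRNA, whereas the others have targets elsewhere. The large block from mir-379 to mir-410 is best known from brain, where neuronal activity induces it through Mef2, and miR-134, one of its products, controls dendritic spines through Limk1. In pluripotent cells the maternal transcripts are known for being silenced in some lines of induced pluripotent stem cells, which then develop poorly in embryos.

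By the GRCm38 annotation (mm10) all 47 hairpins lie on the plus strand between chr12:109563692 and 109747960, a span of 184 kb. They fall into 3 segments. The proximal segment, before the anti-Rtl1 hairpins (chr12:109590447-109595397), held 14 entries of 8 hairpins, from mir-770 within Meg3 through mir-665 to the 2 copies of mir-3070. The middle segment, within Rian (chr12:109603940-109661716), held 6 entries of the hairpins mir-341, mir-1188 and mir-370. The distal segment, from mir-379 (chr12:109709060) onward, held 68 entries of 36 hairpins, and its later part from mir-382 lies within Mirg (chr12:109729764-109749460).

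Mature sequences from RefSeq (GRCm38.p6 tables) were found for 84 of the 88 entries. They are written 5′ to 3′ with the seed, bases 2 to 8, in capitals, since the seed sets most of a miRNA's target choice. The first set is the 6 entries of highest mean level, which set the summed signal of the region.
miR-541-5p: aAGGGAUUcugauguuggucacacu
miR-410-3p: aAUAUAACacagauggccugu
miR-411-5p: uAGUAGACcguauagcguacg
miR-409-3p: gAAUGUUGcucggugaaccccu
miR-381-3p: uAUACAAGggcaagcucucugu
miR-300-3p: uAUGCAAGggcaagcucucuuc
In the genome these are at chr12:109742422-109742446 (miR-541-5p), chr12:109743764-109743784 (miR-410-3p), chr12:109710190-109710210 (miR-411-5p), chr12:109743204-109743225 (miR-409-3p), chr12:109726870-109726891 (miR-381-3p) and chr12:109724363-109724384 (miR-300-3p). The hairpins mir-541, mir-409 and mir-410 lie within the annotated Mirg gene, and the other 3 in sequence with no annotated host. The sequences of miR-381-3p and miR-300-3p differ at 3 positions, so reads of one could in part be counted as the other. The same doubt holds for miR-379-3p with miR-411-3p and for miR-3070-3p with miR-3070-2-3p, which differ at 2 positions. It also holds at 3 positions for miR-376a-3p with miR-376b-3p, miR-494-5p with miR-154-5p, miR-496a-5p with miR-377-5p and miR-379-3p with miR-758-3p.

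The second set shows 8 further entries, each called in at least 1 of the comparisons that follow.
miR-410-5p: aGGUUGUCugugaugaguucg
miR-485-3p: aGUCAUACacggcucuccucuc
miR-370-3p: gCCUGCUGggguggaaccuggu
miR-341-3p: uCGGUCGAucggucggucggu
miR-667-3p: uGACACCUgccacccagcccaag
miR-668-3p: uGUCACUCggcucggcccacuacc
miR-134-5p: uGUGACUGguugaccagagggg
miR-369-3p: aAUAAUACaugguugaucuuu
They lie at chr12:109743729-109743749 (miR-410-5p), chr12:109734946-109734967 (miR-485-3p), chr12:109618305-109618326 (miR-370-3p), chr12:109611556-109611576 (miR-341-3p), chr12:109720061-109720083 (miR-667-3p), chr12:109734774-109734797 (miR-668-3p), chr12:109734145-109734166 (miR-134-5p) and chr12:109743466-109743486 (miR-369-3p). The hairpins mir-341 and mir-370 lie in Rian introns, mir-134, mir-410 and mir-485 in Mirg exons, mir-369, mir-409, mir-541 and mir-668 in Mirg introns, and mir-667 in sequence with no annotated host.

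The entries are not one seed family. The 84 sequences carried 79 seeds, of which 5 were shared by a pair of entries, 1 of these pairs being the copies miR-3070-3p and miR-3070-2-3p. The third set shows 2 such pairs, 1 from the 3p arms and 1 from the 5p arms.
miR-379-3p: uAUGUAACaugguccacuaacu
miR-411-3p: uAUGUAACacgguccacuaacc
miR-410-5p: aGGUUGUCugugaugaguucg
miR-494-5p: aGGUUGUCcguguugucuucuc
The other shared seeds joined miR-379-5p with miR-1193-5p and miR-370-5p with miR-1193-3p. The 7 bases of 4 seeds were also found in miRNAs of other regions: miR-410-3p shares its seed with miR-344d-3p and miR-344e-3p, miR-329-3p with miR-362-3p, miR-377-5p with miR-672-5p, and miR-540-3p with miR-6915-5p.

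Beyond the seeds, short stretches recur along the distal block. The letters GGU stood at bases 2 to 4 in 14 of the 41 5p entries with a sequence (34.1%), 12 of these distal, as in miR-410-5p and miR-494-5p above, against 5 of 356 other 5p entries of the table (1.40%). On the 3p arm the letters GGUNNAC, where N is any base, stood somewhere in 11 of 32 distal entries and in 0 of the 3p entries from outside the set. The 11 include miR-379-3p, miR-411-3p, miR-323-3p, miR-543-3p and miR-409-3p. Both stretches were searched on the RNA strand after the sequences had been read, and are given as a description.

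The deposited values rest on very different totals: the summed signal of a library ran from 46965 to 830402 and its recovered miRNA reads from 56377 to 1060306. Values are therefore given as relative signal, the deposited value divided by a library factor that places the median of 319 miRNAs seen in every library at the same level (42 of the 319 are members of the set). Changes are log2 differences of relative signal plus a pseudocount of 0.48, tested with limma and adjusted over the 521 miRNAs kept by a filter on mean level. A miRNA read spans the whole molecule, so levels of different entries were compared without a length correction. RNA was taken from whole cultures, so that fewer cells that express an entry and less of it per cell cannot be told apart.

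Markers of ESCs and of other cell types differed between some of the groups. In B8 the endodermal and muscle ranges of days 0 and 7 overlapped. The 22 ESC entries (miR-290 to miR-295 and miR-302 families) summed to 25.8 to 28.9% of miRNA signal in B8 at day 0 and 5.97 to 10.6% at day 7, and in D3 to 20.0 to 25.1%, 0.685 and 0.696% and 1.31 to 1.47% at days 0, 7 and 21. At least 18 of the 22 had reads in every group, with miR-291b-3p at 0 in 4 groups and miR-302c-3p in 3. Neural entries (16) summed to 0.0915 to 0.122% at day 0 and 1.21 to 1.28% at day 7 in B8, and to 0.105 to 0.112%, 1.43 and 1.48% and 0.758 to 0.905% at days 0, 7 and 21 in D3, and miR-137-3p was at 0 in both day 0 groups. Mesenchymal entries (9, among them miR-143, miR-145a and miR-199a) held 1.56 to 1.86% and 0.475 to 1.46% in B8 at days 0 and 7, and 0.194 to 0.252%, 1.02 and 1.38% and 5.55 to 7.05% in D3, where both arms of mir-214 were at 0 at day 0. The muscle entries (10, among them miR-1a and miR-133a) held 0.125 to 0.345% in D3 at day 21, where all 10 had reads, and at most 0.00429% elsewhere, with miR-206-3p and miR-208a at 0. Blood and endothelial entries (8) held 0.337 to 0.362% and 0.0317 to 0.0620% in B8 at days 0 and 7, and 0.108 to 0.125%, 0.196 and 0.224% and 0.247 to 0.386% in D3 at days 0, 7 and 21. miR-451a was at 0 outside D3 at day 21, whereas miR-144-3p was at 0 outside D3 at day 0. Endodermal entries (8) held 0.0725 to 0.0730% and 0.0670 to 0.0740% in B8, and 0.0791 to 0.121%, 0.0402 and 0.0432% and 0.269 to 0.310% in D3. miR-215-3p was at 0 outside D3 at day 21. A single pair, miR-10a and miR-10b, took 42.0 to 47.0% of the signal in B8 and 63.4 and 67.2% in D3 at day 7, against 0.579 to 0.660% and 0.0807 to 0.160% at day 0. The marker shares are of a total that includes this pair, which lowers them most in D3 at day 7. They were not recalculated without it, so the smaller differences between days may not hold outside it. The part of the markers or of miR-10a and miR-10b in the changes below was not tested.

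The 88 entries together took their largest share of the miRNA signal in undifferentiated D3 cells. Their share was 13.4 to 14.0% in D3 at day 0, 2.70 and 3.32% at day 7 and 5.96 to 6.72% at day 21, and in B8 6.18 to 6.90% at day 0 and 1.66 to 2.45% at day 7. The ranges of the 2 day 0 groups do not overlap, nor do those of the day 7 groups, and in each line every day 7 library lay below every day 0 library. With miR-10a and miR-10b left out of the total the shares were 6.22 to 6.94% and 3.14 to 4.27% in B8 at days 0 and 7, and 13.4 to 14.1%, 8.24 and 9.07% and 6.93 to 7.61% in D3, so that D3 at day 7 then lay above D3 at day 21. The summed relative signal, which does not depend on that total, was 8905 to 9251 and 3905 to 4536 in B8, and 16539 to 17291, 9536 and 10216 and 9877 to 10317 in D3. These sums rested on 2356 to 6288 reads in B8 at day 7, the fewest, and on 36798 to 47306 in D3 at day 21, the most.

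The 10 anti-Rtl1 entries of the same region, led by miR-127-3p, summed to more than the 88 entries in all 14 libraries. The ratio of the 2 summed signals, set over anti-Rtl1, was 0.809 to 0.861 in undifferentiated B8 and 0.725 to 0.992 in B8 embryoid bodies. In D3 it was 0.888 to 0.938 in undifferentiated cells, 0.828 and 0.868 in embryoid bodies and 0.609 to 0.700 in outgrowths, where all 3 libraries lay below those of every other group. This ratio is taken within a library and needs no scaling factor.

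**Figure D1:**
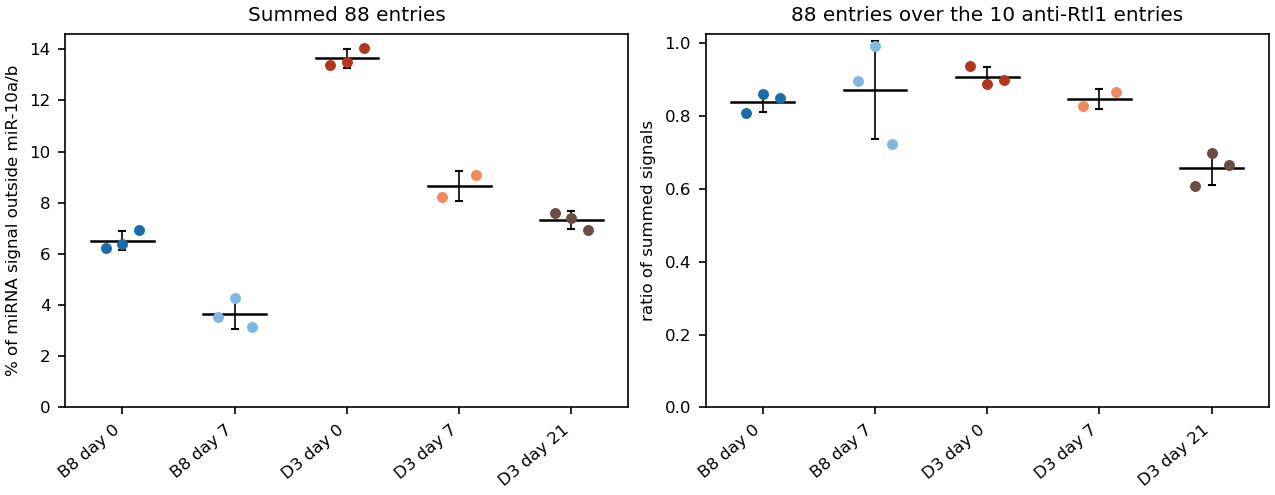
Left, the summed signal of the 88 entries as a percentage of all miRNA signal outside miR-10a and miR-10b; right, the ratio of that sum to the sum of the 10 anti-Rtl1 entries; points are libraries, bars the group mean ± SD (n = 3, or 2 in D3 at day 7). The D3 day 0 libraries are highest on the left (13.4 to 14.1%) and the D3 day 21 libraries lowest on the right (0.609 to 0.700).

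A few entries carried most of this signal. The 6 of highest mean level held 80.1% of the summed signal in B8 at day 0, 80.1% at day 7, and 79.0%, 78.6% and 80.4% in D3 at days 0, 7 and 21 (means over libraries; the leading 6 of each group). Detection was incomplete: of the 88 entries, 11 had no read in B8 at day 0, 18 in B8 at day 7, and in D3 9, 6 and 5 at days 0, 7 and 21. The value of 3 reads, the limit that a count of 0 allows, was 2.05 and 3.21 in relative signal in B8 at days 0 and 7. In D3 it was 4.17, 0.957 and 0.723 at days 0, 7 and 21 (means over libraries). Such limits cover counting error only. In all, 66 entries passed the filter (28 of the 5p and 38 of the 3p arm). The 22 others had group means at or under the value of 3 reads, except 2 entries in D3 at day 7 and 2 at day 21. Of the 66, 28 were still at or under that value in B8 at day 7 and 18 in D3 at day 0, so a low level in either group is poorly measured.

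The most abundant entry in all 5 groups was miR-541-5p, cut from the distal block within Mirg. Its relative signal was 2448, 2388 and 2304 in the B8 libraries of day 0 and 1368, 1375 and 1336 at day 7, and 4849, 3910.0 and 4188 in the D3 libraries of day 0, 2379 and 2657 at day 7 and 2741, 2661 and 2533 at day 21. The day 0 libraries of D3 were the highest and the day 7 libraries of B8 the lowest, with no overlap between either group and any other. B8 at day 0 and D3 at days 7 and 21 lay within 2304 to 2741.

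miR-410-3p, at the distal end of the block, followed another course in D3. It measured 1236, 1356 and 1297 in the B8 libraries of day 0 and 739, 892 and 743 at day 7, and 1915, 2402 and 2406 in the D3 libraries of day 0, 2271 and 2275 at day 7 and 1948, 1909 and 2177 at day 21. On this scale all D3 libraries lay above all B8 libraries, though not at day 0 as deposited, and its D3 day 0 libraries overlapped those of both later days. miR-411-5p, from the start of the distal block, measured 1330.4, 1369 and 1491 in the B8 libraries of day 0 and 328, 325 and 309.9 at day 7, and 2254, 2618 and 2729.9 in the D3 libraries of day 0, 1078 and 1212 at day 7 and 1564, 1779 and 1965 at day 21. Its day 21 libraries in D3 lay between those of days 0 and 7, and its B8 day 7 libraries were far below all others.

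miR-409-3p measured 1308, 1293 and 1126 in the B8 libraries of day 0 and 539.5, 666 and 469 at day 7, and 2339.7, 2285 and 2328 in the D3 libraries of day 0, 969 and 1109.5 at day 7 and 912, 892 and 829 at day 21. miR-381-3p measured 660.1, 674 and 582 in the B8 libraries of day 0 and 112, 112 and 92.8 at day 7, and 1280.4, 1380.4 and 1320.2 in the D3 libraries of day 0, 479 and 458 at day 7 and 420.3, 486.99 and 505 at day 21, and miR-300-3p, its near-copy, 343, 358 and 306 in the B8 libraries of day 0 and 75.7, 94.5 and 54.7 at day 7, and 619, 616 and 535 in the D3 libraries of day 0, 286 and 293 at day 7 and 280.5, 308 and 322 at day 21. For all 3 the order of the groups was D3 day 0 first and B8 day 7 last. The D3 day 7 and day 21 libraries overlapped for miR-381-3p and miR-300-3p, and for miR-409-3p those of day 7 lay above those of day 21.

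**Figure D2:**
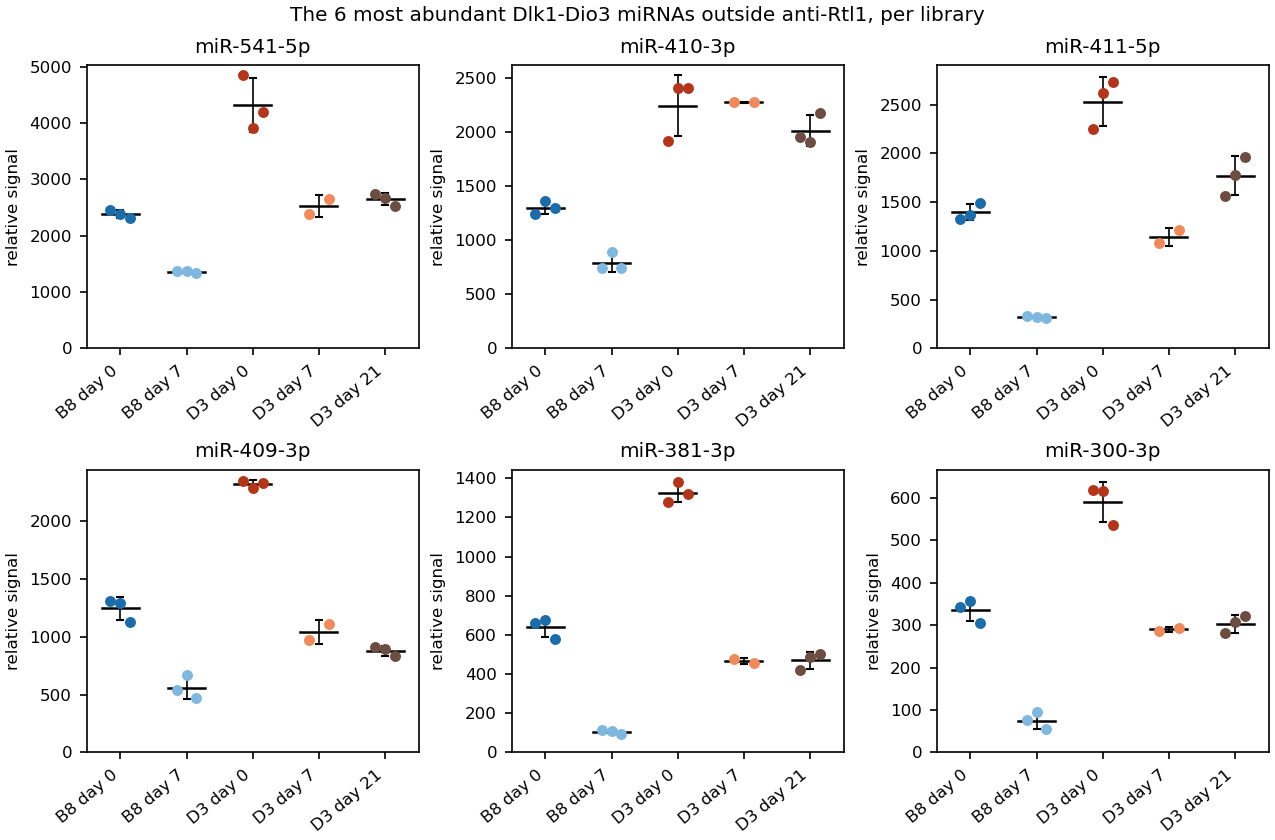
Relative signal of the 6 most abundant entries (linear axes from 0; points are libraries, bars the group mean ± SD, n = 3, or 2 in D3 at day 7). In each panel the B8 day 7 libraries are lowest, and in 5 of the 6 the D3 day 0 libraries are highest; miR-410-3p in D3 has day 0 values that overlap those of days 7 and 21. With values as deposited, D3 at day 7 lies above D3 at day 0 in all 6.

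Over the 66 kept entries the highest group mean was in D3 at day 0 for 37, in D3 at day 21 for 14, in D3 at day 7 for 11 and in B8 at day 0 for 4, and the lowest was in B8 at day 7 for 50. No entry had its highest mean in B8 at day 7. Neighbours in this order often did not differ beyond their spread, as the comparisons below show. With the values as deposited the D3 day 7 libraries lie above the D3 day 0 libraries for most entries, so the order of those 2 groups rests on the scaling.

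By position, the distal segment held nearly all of the signal: 92.3 to 93.3% of the summed signal of the set in B8 at day 0, 90.8 to 93.3% in B8 at day 7, and 91.8 to 92.5%, 93.0 and 93.2% and 93.5 to 95.1% in D3. Its summed relative signal was 8449.9 ± 208.01 (SD, n = 3) and 3842 ± 349 (SD, n = 3) in B8 at days 0 and 7, and 15537 ± 307 (SD, n = 3), 9194 ± 428 (SD, n = 2) and 9486 ± 294 (SD, n = 3) in D3 at days 0, 7 and 21. The 14 proximal entries, led by miR-337-5p and miR-673-5p, held 3.64 to 4.20% and 3.36 to 4.24% in B8, and 3.41 to 3.97%, 2.62 and 2.84% and 3.02 to 3.67% in D3, lowest at day 7. The 6 middle entries, nearly all miR-341-3p and miR-370-3p, held 2.9997 to 3.55% and 3.02 to 4.92% in B8, and 3.99 to 4.32%, 4.15 and 4.20% and 1.92 to 2.86% in D3. These shares are within a library and do not depend on the scaling. In D3 the middle share at day 21 lay below the shares of days 0 and 7 in all 3 libraries.

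The 2 leading middle entries, both cut from Rian introns, moved in opposite directions in B8. miR-341-3p measured 259, 230.2 and 245 in the B8 libraries of day 0 and 25.8, 59.2 and 72.9 at day 7, and 491, 569 and 595 in the D3 libraries of day 0, 197 and 199.7 at day 7 and 165, 134.1 and 127.2 at day 21. miR-370-3p measured 58.1, 42.7 and 56.9 in the B8 libraries of day 0 and 94.8, 94.5 and 118 at day 7, and 164, 109.9 and 135.5 in the D3 libraries of day 0, 197 and 225 at day 7 and 114, 97.9 and 65.8 at day 21. In B8 all day 7 libraries lay below day 0 for miR-341-3p and above day 0 for miR-370-3p. The leading proximal entry, miR-337-5p, measured 151, 159 and 158 in the B8 libraries of day 0 and 57.4, 67.8 and 51.4 at day 7, and 209.8, 246 and 293 in the D3 libraries of day 0, 101 and 106 at day 7 and 155, 132 and 161 at day 21, with the D3 day 0 libraries highest and the B8 day 7 libraries lowest.

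The first comparison asks how the entries changed as B8 cells formed embryoid bodies. From day 0 to day 7 in B8, 32 of the 66 entries fell and 1 rose, while of all 521 miRNAs 26.9% higher and 25.9% lower, 52.8% in all, passed. The median log2 change was −1.06 over the 66 and −0.04 over all 521. The groups did not overlap for 31 of the 66 entries, among them 30 of the 33 called, and for 55.5% of all kept miRNAs. With values as deposited 37 fell and 1 rose (all 521: 21.9% higher and 28% lower, 49.9% in all), and with equal column totals 40 fell and 0 rose (all 521: 18.6% higher and 36.1% lower, 54.7% in all), so the direction held under both. Of the 10 anti-Rtl1 entries 7 fell and 1 rose; those of the Sfmbt2 intron, another imprinted miRNA cluster listed by name, gave 0 lower and 8 higher of 42.

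The falls were of unequal size among the abundant entries. miR-381-3p fell 6.05-fold (log2 change −2.59 ± 0.14 SE, limma adjusted p = 1.36e-10), miR-300-3p 4.48-fold (log2 −2.19) and miR-411-5p 4.35-fold (log2 −2.12). miR-409-3p fell 2.23-fold (log2 −1.17 ± 0.15 SE), miR-541-5p 1.75-fold (log2 −0.81 ± 0.13 SE) and miR-410-3p 1.64-fold (log2 change −0.72 ± 0.14 SE, limma adjusted p = 0.000341). The last 3 are all cut from within Mirg. Among the entries at or above the median level whose groups did not overlap, those with the largest falls also included miR-376c-3p, at 30.6, 23.7 and 27.96 at day 0 and 11.6, 10.8 and 0 at day 7 (log2 change −2.78 ± 0.79 SE, limma adjusted p = 0.00724), and miR-341-3p (log2 change −2.33 ± 0.27 SE, limma adjusted p = 1.43e-06). Members of the miR-376 family are known for A-to-I editing of their seeds in brain.

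miR-370-3p was the entry that rose, 1.95-fold (log2 change 0.96 ± 0.22 SE, limma adjusted p = 0.00164), and its call held without any 1 library. miR-1193-3p had no read in the 3 B8 day 7 libraries and measured 18.3, 19.0 and 2.80 at day 0, a level at least 4.17-fold higher than the mean value of 3 reads at day 7. miR-1197-3p measured 11.3, 10.4 and 7.46 at day 0 and 0.831, 0.721 and 0 at day 7 (log2 change −3.46 ± 0.41 SE, limma adjusted p = 1.67e-06). By segment 5 of 9 proximal, 2 of 4 middle and 25 of 53 distal kept entries fell. Within the distal segment the median log2 change was −1.22 over the 32 entries before Mirg, of which 18 fell, and −0.80 over the 21 within Mirg, of which 7 fell; the 2 parts were not tested against each other.

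The same step in D3 gave a smaller median change on the relative scale. From day 0 to day 7 24 of the 66 entries fell and 4 rose, against 36.1% higher and 27.1% lower, 63.1% in all, of all 521 (medians −0.59 and 0.27). The direction turned with the scaling: with values as deposited 47 entries were higher and 1 lower, against 70.4% higher and 6.91% lower, 77.4% in all, of all 521, while equal column totals gave 42 lower and 0 higher, against 21.3% higher and 44.9% lower, 66.2% in all, of all 521. As deposited, the median of all 521 miRNAs shifted by 2.25 and the median of the set by 1.55. Of the 10 anti-Rtl1 entries 2 were lower and 1 higher on the relative scale (10 higher and 0 lower as deposited, 9 lower and 0 higher with equal column totals). Of the 42 Sfmbt2 entries 35 were lower and 0 higher (12 lower and 0 higher as deposited, 37 lower and 0 higher with equal column totals). The count rested in part on 1 library, since without D3 day 7 replicate 2 only 17 entries were called, all lower. D3 at day 7 has only 2 libraries.

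On the relative scale 5 of the 6 most abundant entries fell in D3. miR-541-5p fell 1.71-fold in D3 (log2 change −0.77 ± 0.14 SE, limma adjusted p = 0.000152) and miR-409-3p 2.23-fold (log2 −1.16). miR-381-3p fell 2.83-fold (log2 −1.50 ± 0.16 SE), miR-411-5p 2.21-fold (log2 −1.14) and miR-300-3p 2.04-fold (log2 −1.02). As deposited these 5 were higher at day 7, by log2 1.53, 1.14, 0.80, 1.16 and 1.28 in that order. miR-410-3p gave a log2 change of 0.03 ± 0.16 SE (limma adjusted p = 0.912).

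Among entries at or above the median level, the largest falls in D3 were those of miR-410-5p and both arms of mir-485, from hairpins in Mirg exons. miR-485-3p measured 30.0, 26.5 and 50.3 at day 0 and 3.66 and 1.83 at day 7, a 13.0-fold fall (log2 change −3.49 ± 0.48 SE, limma adjusted p = 6.35e-06) that held its direction as deposited (log2 −1.35). miR-485-5p, whose hairpin is known for limiting synaptic vesicle protein SV2A in neurons, measured 54.8, 44.5 and 41.5 at day 0 and 14.6 and 17.4 at day 7 (log2 change −1.52 ± 0.37 SE, limma adjusted p = 0.0019; 0.74 as deposited). miR-410-5p measured 100.2, 125 and 155 at day 0 and 34.9 and 41.2 at day 7 (log2 change −1.71 ± 0.40 SE, limma adjusted p = 0.00117; 0.58 as deposited). In all 3 both day 7 libraries lay below the 3 of day 0 on the relative scale. Of the low entries miR-665-3p, the last of the proximal entries that passed the filter, measured 18.6, 20.8 and 24.0 at day 0 and 0.998 and 3.05 at day 7 (log2 change −3.24 ± 0.61 SE, limma adjusted p = 0.000184; −1.18 as deposited).

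The 4 rises in D3 were those of miR-370-3p, miR-487b-3p, miR-667-3p and miR-3072-3p. miR-370-3p measured 164, 109.9 and 135.5 at day 0 and 197 and 225 at day 7 (log2 change 0.64 ± 0.25 SE, limma adjusted p = 0.0337), and miR-487b-3p 62.0, 60.6 and 39.3 at day 0 and 81.5 and 77.2 at day 7 (log2 change 0.58 ± 0.24 SE, limma adjusted p = 0.0432). miR-667-3p measured 18.6, 5.68 and 17.5 at day 0 and 26.9 and 33.0 at day 7 (log2 change 1.24 ± 0.44 SE, limma adjusted p = 0.0214), and miR-3072-3p 3.10, 0.947 and 0 at day 0 and 6.65 and 7.02 at day 7 (log2 change 2.44 ± 0.87 SE, limma adjusted p = 0.0214). In each of these the day 7 libraries lay above those of day 0, but every call was lost without some libraries. The day 0 mean of miR-3072-3p (1.35) was under the value of 3 reads in that group (4.17). The limma adjusted p of miR-370-3p rose above 0.05 without D3 day 0 replicate 2 (0.125), D3 day 0 replicate 3 (0.0581), D3 day 7 replicate 2 (0.0765) and D3 day 7 replicate 3 (0.181), and that of miR-487b-3p without D3 day 0 replicate 3 (0.191), D3 day 7 replicate 2 (0.166) and D3 day 7 replicate 3 (0.116). That of miR-667-3p did so without D3 day 0 replicate 2 (0.11), D3 day 7 replicate 2 (0.0607) and D3 day 7 replicate 3 (0.13), and that of miR-3072-3p without D3 day 0 replicate 3 (0.0895), D3 day 7 replicate 2 (0.0859) and D3 day 7 replicate 3 (0.0922). With equal column totals miR-370-3p, miR-487b-3p and miR-667-3p turned to values below 0.

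**Figure D3:**
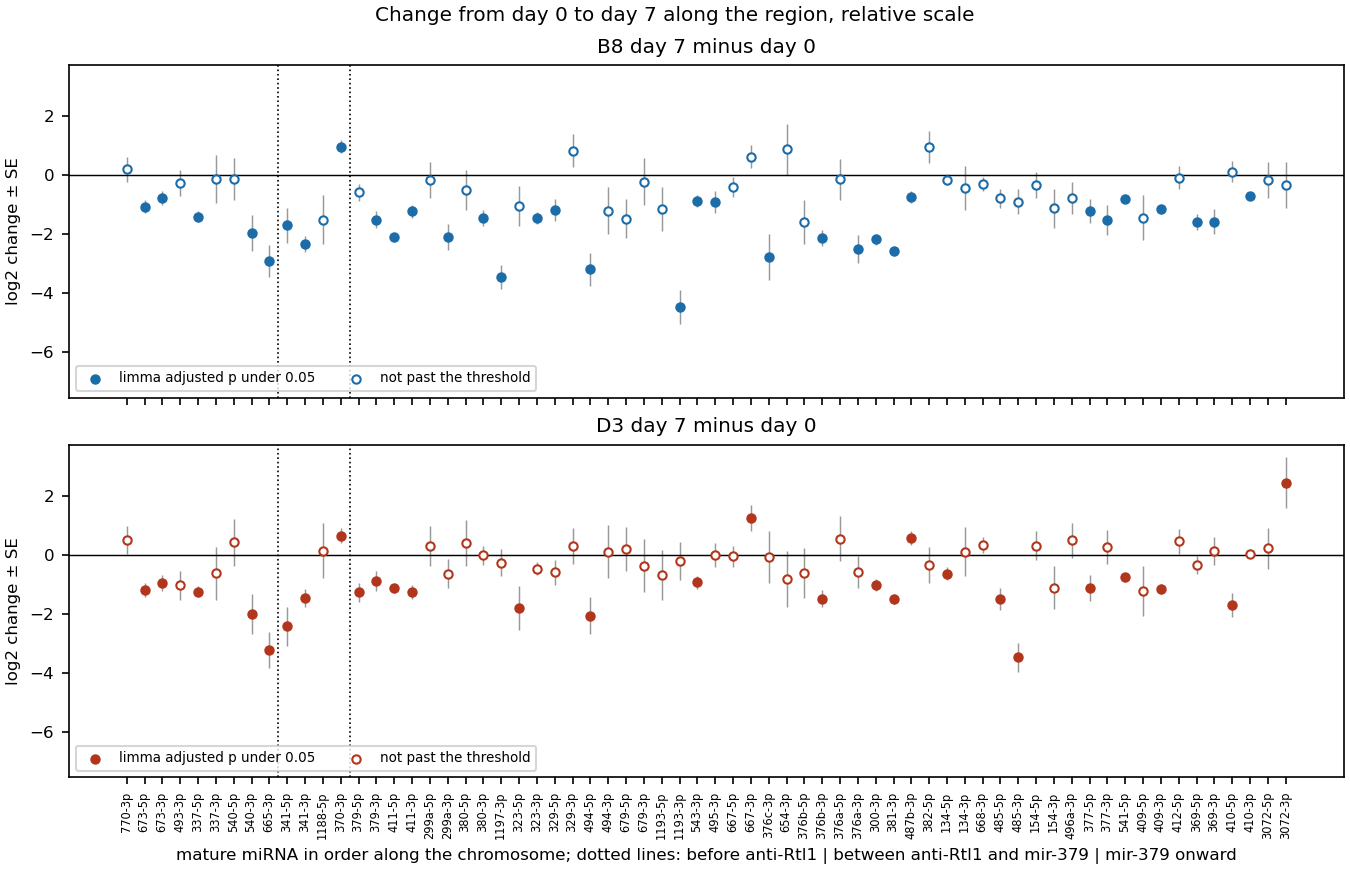
Log2 change of relative signal from day 0 to day 7 (± SE) for the 66 kept entries in order along the chromosome, in B8 (top, 3 against 3 libraries) and D3 (bottom, 2 against 3). Filled points passed limma's adjusted threshold of 0.05; in B8 32 fell and 1 rose, and in D3 24 fell and 4 rose, whereas with values as deposited 47 rose and 1 fell in D3.

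By day 21 in D3, 26 of the 66 entries were lower than at day 0 and 6 higher, against 38.2% higher and 25.5% lower, 63.7% in all, of all 521 (medians −0.55 and 0.41). As deposited 4 were lower and 33 higher, against 65.3% higher and 10.2% lower, 75.4% in all, of all 521, while equal column totals gave 31 lower and 1 higher, against 34.2% higher and 30.7% lower, 64.9% in all. The number of higher entries dropped from 6 to 3 without D3 day 0 replicate 1 and to 2 without D3 day 21 replicate 1 or replicate 3. Of the anti-Rtl1 entries 1 was lower and 1 higher at day 21 (10 higher as deposited). Of the Sfmbt2 entries 34 were lower (18 as deposited). Days 7 and 21 share the day 0 libraries, so the 2 comparisons are not independent.

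Among entries at or above the median level the largest fall was that of miR-410-5p, at 100.2, 125 and 155 at day 0, 34.9 and 41.2 at day 7 and 12.6, 15.4 and 16.3 at day 21. It fell 8.59-fold from day 0 to day 21 (log2 change −3.05 ± 0.35 SE, limma adjusted p = 7.88e-07), with a log2 change of −1.50 as deposited. miR-485-3p, at 6.17, 5.90 and 3.65 at day 21, fell 6.79-fold (log2 −2.63; −1.12 as deposited), and miR-341-3p 3.89-fold (log2 −1.96; −0.39 as deposited). Among the most abundant, miR-381-3p fell 2.82-fold (log2 −1.50), miR-409-3p 2.64-fold (log2 −1.40), miR-300-3p 1.95-fold (log2 −0.96), miR-541-5p 1.63-fold (log2 −0.70) and miR-411-5p 1.43-fold (log2 −0.52 ± 0.14 SE). As deposited these 5 had values above 0: 0.07, 0.17, 0.61, 0.87 and 1.05 in the same order. miR-410-3p gave −0.15 ± 0.14 SE (limma adjusted p = 0.36).

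Among the 6 entries that rose by day 21, miR-668-3p from within Mirg measured 16.7, 12.7 and 15.8 in the B8 libraries of day 0 and 9.98, 11.5 and 14.9 at day 7, and 25.8, 29.4 and 26.2 in the D3 libraries of day 0, 32.6 and 35.7 at day 7 and 80.0, 65.9 and 61.9 at day 21, and rose 2.55-fold from day 0 to day 21 in D3 (log2 change 1.33 ± 0.23 SE, limma adjusted p = 8.29e-05). Its day 21 libraries lay above those of all other groups, and its call held without any 1 library. miR-154-5p measured 15.5, 18.001 and 15.3 at day 0, 24.9 and 16.2 at day 7 and 34.1, 40.2 and 42.1 at day 21 (log2 change 1.23 ± 0.44 SE, limma adjusted p = 0.0216) and lost its call without D3 day 0 replicate 1 (0.0511), D3 day 21 replicate 2 (0.0568) and D3 day 21 replicate 3 (0.0642). miR-667-3p measured 18.6, 5.68 and 17.5 at day 0 and 37.8, 23.8 and 22.2 at day 21 (log2 change 1.11 ± 0.39 SE, limma adjusted p = 0.0212) and lost its call without D3 day 0 replicate 2 (0.149) and D3 day 21 replicate 1 (0.106). The calls of miR-329-3p (log2 change 1.33 ± 0.55 SE, limma adjusted p = 0.0449) and miR-299a-5p (log2 change 1.71 ± 0.61 SE, limma adjusted p = 0.0212) were lost as well. That of miR-329-3p was lost without D3 day 0 replicate 1 (0.0937), D3 day 0 replicate 2 (0.106), D3 day 21 replicate 1 (0.131) and D3 day 21 replicate 3 (0.139), and that of miR-299a-5p without D3 day 0 replicate 1 (0.0948), D3 day 21 replicate 1 (0.0511) and D3 day 21 replicate 3 (0.0615); the values in brackets are limma's adjusted p. The last was miR-3072-3p, at 4.29, 5.47 and 4.14 at day 21 (log2 change 1.91 ± 0.78 SE, limma adjusted p = 0.0401). The D3 day 0 means of miR-329-3p (3.44), miR-299a-5p (2.34) and miR-3072-3p (1.35) were under the value of 3 reads in that group (4.17), so these rises start from a poorly measured level.

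Between days 7 and 21 in D3 few entries changed relative to the median miRNA: 3 rose and 3 fell of 66, against 16.5% higher and 10.6% lower, 27.1% in all, of all 521 (medians 0.03 and 0.01). At an unadjusted p under 0.05 there were 11, and edgeR on the recovered reads called 19 (14 higher, 5 lower). As deposited 19 fell and 0 rose (all 521: 8.06% higher and 31.5% lower, 39.5% in all), and with equal column totals 26 rose and 0 fell (all 521: 38.2% higher and 2.11% lower, 40.3% in all). Without D3 day 7 replicate 2 the count dropped from 6 to 1, and without replicate 3 to 3.

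The risers were miR-411-5p (log2 change 0.62 ± 0.15 SE, limma adjusted p = 0.00607; −0.11 as deposited), miR-668-3p (log2 change 1.003 ± 0.26 SE, limma adjusted p = 0.00811) and miR-299a-3p, which measured 40.3, 37.9 and 30.6 at day 0, 22.6 and 23.2 at day 7 and 78.9, 67.4 and 72.4 at day 21 (log2 change 1.65 ± 0.49 SE, limma adjusted p = 0.0188). The fallers were miR-370-3p (log2 change −1.22 ± 0.25 SE, limma adjusted p = 0.00163), miR-410-5p (log2 change −1.34 ± 0.40 SE, limma adjusted p = 0.0178) and miR-134-5p (log2 change −0.73 ± 0.21 SE, limma adjusted p = 0.0167), the regulator of dendritic spines. miR-134-5p measured 196, 228 and 207.8 in the B8 libraries of day 0 and 147, 228 and 197 at day 7, and 449, 422 and 645 in the D3 libraries of day 0, 311 and 325 at day 7 and 199.2, 182 and 196 at day 21, lower at each later day in D3 with no overlap, and overlapping between the days in B8. Of the 6, the call of miR-370-3p held without any 1 library. The others were lost without these libraries (limma adjusted p in brackets): miR-411-5p without D3 day 7 replicate 2 (0.0859), miR-668-3p without D3 day 7 replicate 2 (0.0797), miR-299a-3p without D3 day 7 replicate 2 (0.111), D3 day 7 replicate 3 (0.0998), D3 day 21 replicate 1 (0.0526) and D3 day 21 replicate 3 (0.0508), miR-410-5p without D3 day 7 replicate 2 (0.0713), D3 day 7 replicate 3 (0.13) and D3 day 21 replicate 1 (0.0545), and miR-134-5p without D3 day 7 replicate 2 (0.0814), D3 day 7 replicate 3 (0.11) and D3 day 21 replicate 2 (0.0526). With equal column totals miR-134-5p had a change above 0.

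The lines differed before differentiation. At day 0, 22 of the 66 entries were higher in D3 than in B8 and 0 were lower, against 7.68% higher and 15.9% lower, 23.6% in all, of all 521 (medians 0.81 and −0.11). At an unadjusted p under 0.05 the limma counts were 30 and 1, and edgeR and DESeq2 on the recovered reads each called 1 lower. The lines did not overlap for 33 of the 66 entries, among them all 22 called, and for 37.8% of all kept miRNAs. As deposited 1 was higher and 2 lower, against 0.96% higher and 46.1% lower, 47% in all, of all 521, and the median of all 521 was −0.90 against −0.19 for the set. With equal column totals 23 were higher and 0 lower, against 9.21% higher and 12.5% lower, 21.7% in all, of all 521. Of the 10 anti-Rtl1 entries 4 were higher and 0 lower (0 and 1 as deposited). Of the 42 Sfmbt2 entries 2 were higher and 0 lower (0 and 14 as deposited).

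The abundant entries differed by similar factors. D3 exceeded B8 at day 0 by 2.08-fold for miR-381-3p (log2 change 1.06 ± 0.14 SE, limma adjusted p = 2.11e-05), 1.87-fold for miR-409-3p (log2 0.90), 1.81-fold for miR-541-5p (log2 0.85), 1.81-fold for miR-411-5p (log2 0.86) and 1.73-fold for miR-410-3p (log2 0.78). As deposited these differences were 0.00, −0.15, −0.20, −0.20 and −0.27. Larger differences were those of miR-410-5p, 6.25-fold higher in D3 (log2 change 2.61 ± 0.35 SE, limma adjusted p = 2.15e-05; 1.56 as deposited), miR-485-3p, 3.60-fold (log2 1.77), and miR-370-3p, 2.60-fold (log2 1.36). For miR-410-5p the B8 libraries held 24.7, 18.5 and 17.7 and the D3 libraries 100.2, 125 and 155. The higher entries came from all segments: 3 of 9 proximal, 2 of 4 middle and 17 of 53 distal, and all 22 were among the 33 entries at or above the median level.

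At day 7 the same direction held for more entries. Here 34 of the 66 entries were higher in D3 and 0 lower, against 24.8% higher and 16.7% lower, 41.5% in all, of all 521 (medians 1.13 and 0.37), and at an unadjusted p under 0.05 limma gave 35 and 0. As deposited 60 were higher and 0 lower, against 66% higher and 9.21% lower, 75.2% in all, of all 521, while equal column totals gave 16 higher and 1 lower, against 8.25% higher and 23.6% lower, 31.9% in all. The lines did not overlap for 45 of the 66 entries, among them all 34 called, and for 59.5% of all kept miRNAs. Of the anti-Rtl1 entries 9 of 10 were higher in D3, whereas 33 of 42 Sfmbt2 entries were lower. By segment 3 of 9 proximal, 2 of 4 middle and 29 of 53 distal entries were higher.

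Among the abundant entries the day 7 difference was largest for miR-381-3p, 4.43-fold (log2 change 2.15 ± 0.16 SE, limma adjusted p = 9.15e-09), then for miR-411-5p, 3.57-fold (log2 1.83), and miR-410-3p, 2.87-fold (log2 1.53). For miR-409-3p it was 1.86-fold (log2 0.91) and for miR-541-5p 1.85-fold (log2 0.89), close to the day 0 values. Both arms of mir-369 were among the 3 largest at or above the median level: miR-369-3p measured 14.1, 16.6 and 3.31 in B8 and 69.2 and 65.3 in D3 (log2 change 2.79 ± 0.48 SE, limma adjusted p = 0.000157), and miR-369-5p 18.3, 17.3 and 8.29 and 64.5 and 72.7 (log2 change 2.27 ± 0.30 SE, limma adjusted p = 1.29e-05). miR-376c-3p, at 11.6, 10.8 and 0 in B8 and 27.6 and 28.4 in D3 (log2 change 2.82 ± 0.89 SE, limma adjusted p = 0.0181), lost its call without D3 day 7 replicate 2 (0.092) and D3 day 7 replicate 3 (0.0906), limma's adjusted p in brackets.

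**Figure D4:**
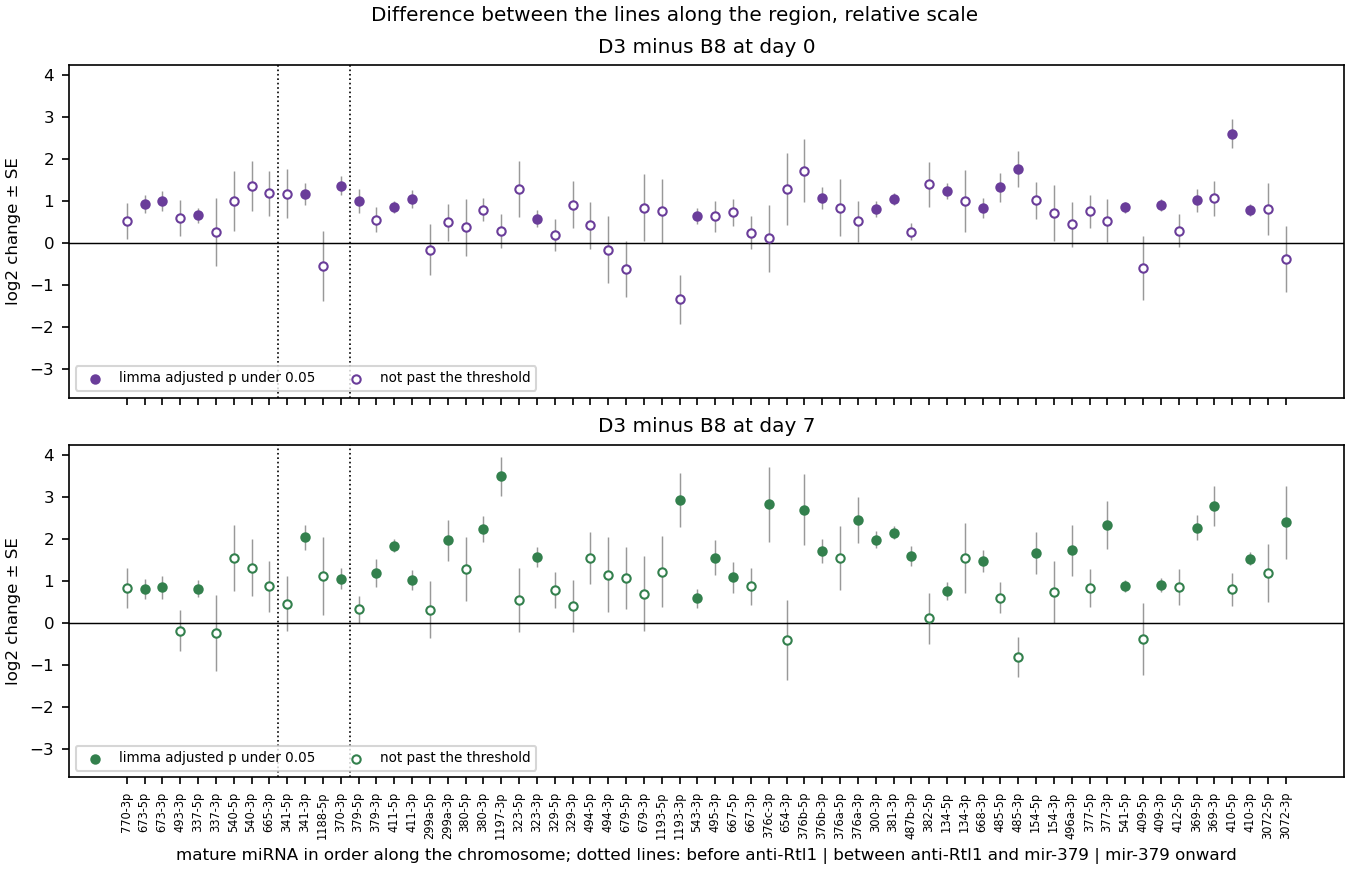
Log2 difference of relative signal, D3 minus B8 (± SE), for the 66 kept entries in order along the chromosome, at day 0 (top, 3 against 3 libraries) and day 7 (bottom, 2 against 3). At day 0 22 entries passed limma's adjusted threshold of 0.05 and at day 7 34, all higher in D3; with values as deposited the day 0 counts were 1 higher and 2 lower.

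Whether the step from day 0 to day 7 differed between B8 and D3 was tested directly as an interaction, in which a positive value means a smaller fall or larger rise in D3. It passed the threshold for 12 entries above 0 and 2 below 0, against 20.7% higher and 12.5% lower, 33.2% in all, of all 521, and the median was 0.55 over the set and 0.49 over all miRNAs. As deposited the counts were 52 and 0 (all 521: 71.8% higher and 2.5% lower, 74.3% in all), and with equal column totals 2 and 9 (all 521: 9.98% higher and 20.3% lower, 30.3% in all), so the balance of directions follows the scaling. Without D3 day 7 replicate 3 the 14 calls became 9. All 14 were distal, with 9 above 0 of the 32 before Mirg and 3 above and 2 below of the 21 within Mirg.

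Among abundant entries the interaction was 1.09 ± 0.21 SE for miR-381-3p (limma adjusted p = 0.0007), 1.17 ± 0.27 for miR-300-3p (limma adjusted p = 0.0028) and 0.98 ± 0.21 for miR-411-5p (limma adjusted p = 0.0013), each of which fell less in D3 than in B8 on the relative scale. For miR-410-3p, which was called lower in B8 alone, it was 0.75 ± 0.21 SE (limma adjusted p = 0.01). For miR-541-5p it was 0.03 ± 0.19 SE and for miR-409-3p 0.01 ± 0.22 SE, with limma adjusted p = 0.917 and 0.988. miR-1197-3p gave 3.19 (limma adjusted p = 0.000611) and miR-1193-3p, without reads in B8 at day 7, 4.27 (limma adjusted p = 0.00099), a fitted value that depends on the pseudocount. Below 0 were miR-485-3p (−2.58 ± 0.64 SE, limma adjusted p = 0.00436) and miR-410-5p (−1.81 ± 0.53 SE, limma adjusted p = 0.0127; 0.69 as deposited). In B8 miR-410-5p measured 24.7, 18.5 and 17.7 at day 0 and 34.1, 29.6 and 9.94 at day 7, overlapping between the days. The call of the miR-410-5p interaction was lost without D3 day 7 replicate 2 (adjusted p = 0.0634). The other 6 calls, all above 0, were those of miR-323-3p, miR-369-3p, miR-369-5p, miR-376a-3p, miR-380-3p and miR-487b-3p.

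The ratio of the 2 arms of a hairpin is taken within a library, so the shares of reads need no scaling. In the fit the pseudocount of 0.48 was added to the deposited value of each arm, where 1 read stood for 0.295 to 1.37. Fitted ratios with few reads on an arm therefore still depend on the library factor. Of 24 hairpins with both arms kept, 10 had more 3p than 5p reads in all 5 groups, 8 had more 5p reads in all groups, and 6 were mixed. The balance was extreme for the abundant hairpins: the 3p share was at least 99.2% in every group for mir-409 and at most 8.43% for mir-411, while mir-369 and mir-379 split their reads nearly evenly, with 3p shares of 42.2 to 52.5% and 38.9 to 53.8% over the groups. Changes in arm ratio past the threshold numbered 2 of 24 from day 0 to day 7 in B8, 2 in D3, 8 in D3 by day 21 and 2 between the lines at day 0. Over all 149 hairpins of the table the shares were 10.7%, 18.8%, 28.9% and 7.38%. Between days 7 and 21 in D3, and between the lines at day 7, limma called 0 of 24, with 4 and 7 at an unadjusted p under 0.05 (2.01% and 3.36% of the 149 called). In the interaction 2 of 24 were called, against 3.36% of the 149.

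The arm balance of mir-410 differed in 4 comparisons. Its 3p arm had at least 448 reads in each library and its 5p arm far fewer: 19 to 46 in the B8 libraries of day 0 and 6 to 41 at day 7, and 71 to 132 in the D3 libraries of day 0, 105 and 135 at day 7 and 47 to 73 at day 21. The 3p share of its reads was 98.0, 98.7 and 98.7% in B8 at day 0, 95.6, 96.8 and 98.7% at day 7, 95.0, 95.1 and 93.9% in D3 at day 0, 98.5 and 98.2% at day 7 and 99.4, 99.2 and 99.3% at day 21. The D3 day 0 libraries carried the most 5p reads for their 3p reads, and the D3 day 21 libraries the fewest. The log2 ratio of 3p to 5p rose in D3 from day 0 to day 7 (1.75 ± 0.44 SE, limma adjusted p = 0.015) and to day 21 (2.91 ± 0.40 SE, limma adjusted p = 0.00037), and was lower in D3 than in B8 at day 0 (−1.83 ± 0.40 SE, limma adjusted p = 0.0116). The interaction was 2.58 ± 0.59 SE, limma adjusted p = 0.0398. Several of these calls rested on single libraries: at day 7 the call was lost without D3 day 7 replicate 2 (0.111) and D3 day 7 replicate 3 (0.0613), and between the lines at day 0 without B8 day 0 replicate 2 (0.0533) and D3 day 0 replicate 3 (0.0509). The interaction was lost without B8 day 0 replicate 2 (0.0658), B8 day 0 replicate 3 (0.0743), B8 day 7 replicate 1 (0.0624), D3 day 0 replicate 1 (0.0674), D3 day 0 replicate 3 (0.0746), D3 day 7 replicate 2 (0.0925) and D3 day 7 replicate 3 (0.0877); brackets give limma's adjusted p.

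**Figure D5:**
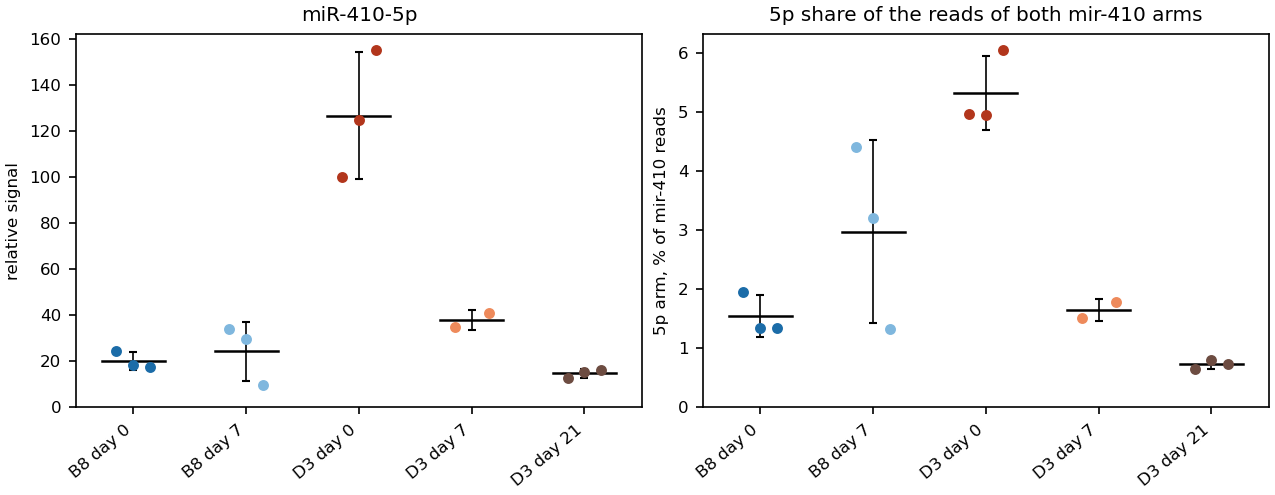
Relative signal of miR-410-5p (left) and the 5p share of the reads of both mir-410 arms (right), per library (points) with the group mean ± SD (n = 3, or 2 in D3 at day 7). The D3 day 0 libraries are highest in both panels, with miR-410-5p at 100.2, 125 and 155 against 24.7, 18.5 and 17.7 in B8 at day 0; as deposited miR-410-5p is higher in D3 at day 7 than at day 0, by 0.58 on the log2 scale.

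mir-485 moved the other way. Its 3p share was 35.4, 37.3 and 54.8% in D3 at day 0, 20.0 and 9.52% at day 7 and 18.7, 21.2 and 15.2% at day 21, and 26.7, 37.3 and 40.9% and 15.4, 33.3 and 54.5% in B8 at days 0 and 7. The log2 ratio fell in D3 to day 7 (−2.09 ± 0.65 SE, limma adjusted p = 0.0414) and to day 21 (−1.66 ± 0.58 SE, limma adjusted p = 0.0497), but the day 7 call was lost without any one of the 5 libraries (limma adjusted p from 0.0526 to 0.248). Of the 6 other ratios called between days 0 and 21 in D3, that of mir-667 (2.18 ± 0.57 SE, limma adjusted p = 0.0109) went from 32 reads of 3p and 47 of 5p to 345 and 101. That of mir-154 (−2.38 ± 0.62 SE, limma adjusted p = 0.0101) went from 16 and 41 to 29 and 491, toward the 5p arm, and that of mir-377 (1.41 ± 0.39 SE, limma adjusted p = 0.0132) from 10 and 37 to 75 and 96. The other 3 rested on fewer reads: 4 and 23 to 16 and 8 for mir-494, 4 and 3 to 59 and 4 for mir-3072, and 9 and 4 to 56 and 3 for mir-1193. The mir-1193 ratio was also called in B8 to day 7, where both arms had 0 reads, between the lines at day 0 and in the interaction, so those fitted values depend on the pseudocount. The mir-376a ratio was called in B8 with 4 and 3 reads at day 7. With a pseudocount of 0.2 per 1000000 the counts of called ratios were 1 in B8 to day 7, 1 in D3 to day 7, 4 to day 21 and 0 in the interaction, and with 10 per 1000000 12, 8, 10 and 11.

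On the relative scale, 18 entries fell to day 7 in both lines. In B8 alone 14 were called lower, and in D3 alone 6. The difference itself was called for the 14 entries above. In D3, 16 of the 18 were also lower at day 21. The 11 entries called lower in B8 at day 7 and in no D3 comparison with day 0 include miR-410-3p, miR-369-3p, miR-376c-3p, miR-1193-3p and miR-1197-3p. For entries higher in D3 than in B8, 18 were called at both days, among them the 6 most abundant. The 2 comparisons of each kind draw on common groups, so these counts are descriptions of the calls.

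The 16 entries lower on the relative scale in all 3 comparisons with day 0 lay in each segment. In order along the chromosome they were miR-673-5p, miR-673-3p, miR-337-5p, miR-540-3p, miR-665-3p, miR-341-3p, miR-411-5p, miR-411-3p, miR-494-5p, miR-543-3p, miR-376b-3p, miR-300-3p, miR-381-3p, miR-377-5p, miR-541-5p and miR-409-3p. Their log2 changes ran from −3.20 to −0.79 in B8, −3.24 to −0.77 in D3 to day 7 and −3.09 to −0.52 in D3 to day 21. The 19 kept entries called in none of the 3 were miR-770-3p, miR-337-3p, miR-540-5p, miR-1188-5p, miR-380-5p, miR-494-3p, miR-679-5p, miR-679-3p, miR-1193-5p, miR-654-3p, miR-376b-5p, miR-376a-5p, miR-382-5p, miR-134-3p, miR-154-3p, miR-496a-3p, miR-409-5p, miR-412-5p and miR-3072-5p. The 22 entries that did not pass the filter on mean level were miR-770-5p, miR-493-5p, miR-665-5p, miR-3070-3p, miR-3070-2-3p, miR-1188-3p, miR-370-5p, miR-758-5p, miR-758-3p, miR-543-5p, miR-495-5p, miR-300-5p, miR-381-5p, miR-487b-5p, miR-539-5p, miR-539-3p, miR-544-5p, miR-544-3p, miR-382-3p, miR-668-5p, miR-496a-5p and miR-541-3p, and no change was tested for them.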

How the data were processed

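Small RNA of 17 labelled samples was sequenced; the table holds 14 libraries of 5 groups, without those of B8 at day 21, which are not analysed here. The values are a normalized signal per mature miRNA that the authors deposited in a table whose title names TMM. Per the file headers, reads were trimmed with cutadapt and passed a length step; per the submitters' processing notes CASAVA, FastQC, Bowtie and Partek were used with mm10. Versions, mismatch settings and the handling of reads that match several miRNAs are not given in the sources used here. Each deposited column is whole reads divided by 1 factor: 100% of values under 1000 reads came out whole within 0.01 read, and edgeR on these reads called 265, 327 and 339 of 521 miRNAs in B8 to day 7, D3 to day 7 and D3 to day 21, where limma called 275, 329 and 332.

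From the deposited signal, median-of-ratios factors over 319 miRNAs seen in all libraries gave the relative signal. The filter kept 521 miRNAs (a mean of 5 per 1000000 or more of the total), 2 per 1000000 of the mean total (0.48) was added, and log2 values were fitted with limma 3.58.1 (R 4.3.3): 5 group means, 9 residual degrees of freedom, trended prior, Benjamini-Hochberg adjustment over 521, threshold 0.05. Arm ratios were fitted within libraries over 149 hairpins. edgeR 4.0.16, DESeq2 1.42.0, other scalings, pseudocounts and filters, and leaving out each library were alternatives. The fits of B8 and D3 to day 7 were tested on simulated data in which most miRNAs were unchanged and as many rose as fell. They recovered 21.3% and 13.1% of 1.5-fold changes, 51.0% and 40.1% of 2-fold and 80.3% and 72.7% of 4-fold changes. Of the calls 3.38% and 2.95% were false. Scaling to the median miRNA was right by design in these data, so the rates do not cover errors from the scaling. An entry that was not called may therefore still have changed.

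Entries named are the 6 of highest level, the most abundant of each segment, in each comparison the 5 most abundant called each way and the 3 largest non-overlapping changes at or above the median level, the 5 smallest adjusted p each way for the interaction, and the 3 smallest for arm ratios. miR-665-3p, miR-134-5p at other days, the values of low-read arm ratios and the lists of calls were added after their values were seen. The members and lists were chosen with earlier results of these data known. Positions come from GENCODE on GRCm38 and sequences from RefSeq.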

Additional observations from a re-analysis of the deposited data

Results flagged for a closer look

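The change from day 0 to day 7 differed between the lines by a direct test (limma interaction, D3 minus B8, adjusted over 521 miRNAs) for 12 of the 66 entries above 0 and 2 below 0. Of all 521 miRNAs 20.7% passed above 0 and 12.5% below 0, 33.2% in all. With values as deposited 52 and 0 entries passed (all 521: 71.8% and 2.5%), and with equal column totals 2 and 9 (all 521: 9.98% and 20.3%). miR-485-3p had −2.58 and miR-410-5p −1.81, where miR-410-5p gave 0.69 as deposited. miR-411-5p had 0.98, miR-381-3p 1.09 and miR-300-3p 1.17. miR-1197-3p had 3.19 and miR-1193-3p 4.27; both were at or near 0 reads in B8 at day 7, so their sizes depend on the pseudocount. The within-library ratio of 3p to 5p differed between the lines in the same way for mir-1193, by 4.33 with 0 reads on both arms in B8 at day 7, and for mir-410, by 2.58. The cause of these differences was not tested.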

How the results depend on the processing

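Scaling moved the counts most. With values as deposited, 47 entries rose and 1 fell in D3 to day 7 (48 in all), 33 rose and 4 fell to day 21, and 0 rose and 19 fell between days 7 and 21. Between the lines 1 was then higher and 2 lower at day 0 (3 in all) and 60 were higher at day 7, and the interaction gave 52 and 0. With equal column totals 0 rose in B8, 0 rose and 42 fell in D3 to day 7, 1 rose to day 21, and 26 rose and 0 fell between days 7 and 21. The lines then differed for 17 entries at day 7 (16 higher, 1 lower) and the interaction gave 2 and 9. Equal totals outside miR-10a and miR-10b gave 3 higher at day 21, 0 higher and 5 lower between days 7 and 21, and 8 interactions (6 above 0). TMM factors, and factors without the set and anti-Rtl1, each gave 2 higher in D3 to day 7 and 6 higher between days 7 and 21.

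Changes that turned sign as deposited were, in D3 to day 7, those of miR-541-5p (1.53), miR-411-5p (1.16), miR-409-3p (1.14), miR-381-3p (0.80), miR-300-3p (1.28), miR-410-5p (0.58) and miR-485-5p (0.74). To day 21 they were those of miR-541-5p (0.87), miR-411-5p (1.05), miR-409-3p (0.17), miR-381-3p (0.069) and miR-300-3p (0.61), and between days 7 and 21 that of miR-411-5p (−0.11). Between the lines at day 0 they were those of miR-541-5p (−0.20), miR-411-5p (−0.20), miR-409-3p (−0.15) and miR-410-3p (−0.27), and in the interaction that of miR-410-5p (0.69). With equal column totals miR-370-3p (−0.77), miR-487b-3p (−0.82) and miR-667-3p (−0.13) turned in D3 to day 7, and miR-134-5p (0.33) between days 7 and 21. These settings differ only in 1 factor per library, applied before the pseudocount is added. On the log scale the resulting shift is nearly constant for abundant entries and smaller for low ones.

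Other settings moved mainly the smaller counts. Between days 7 and 21 in D3, edgeR called 19 (14 higher, 5 lower), DESeq2 15 (10 and 5), a fit of only the compared groups 19 (11 and 8), a pseudocount of 10 per 1000000 11 (7 higher) and a filter at 50 per 1000000 10 (6 higher). Entries higher in D3 at day 7 than in D3 at day 0 numbered 2 with edgeR or a prior without trend, and 1 without a filter or with only the compared groups. Entries higher in D3 at day 21 than in D3 at day 0 numbered 2 without a filter and 3 with the filter at 50 or a pseudocount of 0.2 per 1000000. Between the lines edgeR and DESeq2 each called 1 entry lower in D3 than in B8 at day 0. With only the compared groups 22 were higher in D3 than in B8 at day 7. The cause was not tested.

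Called arm ratios numbered, with a pseudocount of 0.2 per 1000000, 1 in B8, 1 in D3 to day 7, 4 to day 21, 1 between the lines at day 0 and 0 in the interaction. With 10 per 1000000 they numbered 12 in B8, 8 in D3 to day 7, 2 between days 7 and 21, 12 between the lines at day 7 and 11 in the interaction. Without a filter there were 5 in B8, 8 in D3 to day 7, 1 between days 7 and 21, 7 between the lines at day 7 and 5 in the interaction. With the filter at 50 per 1000000 there were 3 to day 21, 1 between the lines at day 0 and 2 at day 7. With only the compared groups there was 1 each in B8, in D3 to day 7, between days 7 and 21, between the lines at day 0 and in the interaction.

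Leaving out 1 library gave 30 to 38 calls in B8 (1 to 2 higher, 29 to 37 lower), 17 to 26 in D3 to day 7 (0 to 4 higher, 17 to 24 lower), 26 to 33 to day 21 (2 to 5 higher, 21 to 29 lower) and 1 to 5 between days 7 and 21 (0 to 3 higher, 1 to 3 lower). Between the lines it gave 20 to 23 at day 0 (20 to 22 higher, 0 to 1 lower) and 24 to 34 at day 7 (24 to 34 higher, 0 lower), and 9 to 18 interactions (7 to 16 above 0, 1 to 2 below). Arm ratios then numbered 1 to 3 in B8, 0 to 4 in D3 to day 7, 6 to 8 to day 21, 0 between days 7 and 21, 1 to 2 and 0 to 2 between the lines at days 0 and 7, and 1 to 3 in the interaction. Replicate numbers were shared across groups, and no label says whether they pair the samples. Same-numbered libraries had correlations of their deviations from −0.0883 to 0.114. These cannot decide on pairing, since the deviations are from means of only 2 or 3 libraries. With the replicate number as a block the counts in the order of the comparisons were 34, 27, 32 and 7 over days, 22 and 36 between the lines and 14 interactions. The block left 1 arm ratio called in the interaction, losing that of mir-410, and the day 21 call of miR-329-3p, and changed no other call named. Depth limits the low entries: 28 of the 66 were at or under the value of 3 reads in B8 at day 7 and 18 in D3 at day 0.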
